A study of Ovis aries with 15 samples.

Results

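Promoters of extracellular matrix genes were followed in perirenal adipose tissue, the fat depot that encloses the kidney, of sheep between fetuses late in gestation and lambs after birth. The genes were chosen by name alone: collagens (COL), laminins (LAM), integrins with a numbered chain (ITGA, ITGB), matrix metalloproteases (MMP), their tissue inhibitors (TIMP) and the ADAM and ADAMTS proteases. The name pattern matched 107 of the 18460 genes with a promoter in any of the deposited tables. They were 33 collagens, 11 laminins, 16 integrins, 12 MMPs, 3 TIMPs, 12 ADAMs and 17 ADAMTS genes. Another 3 genes matched by spelling only and belong to none of these families: COL4A3BP (a ceramide carrier), ITGB3BP (a centromere protein) and ITGB1BP2 (melusin, a muscle protein). Integrins named by a letter, such as ITGAV, fell outside the pattern.

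Fat cells sit in a matrix of fibrillar collagens and are each wrapped in a basement membrane built from laminins and type IV collagen. Integrins are the cell surface receptors that hold cells to both. MMPs and ADAMTS enzymes cut matrix proteins, TIMPs inhibit the MMPs, and many ADAMs release proteins from the cell surface. Of the histone marks measured, H3K27ac lies at promoters in use and H3K4me3 at promoters in use or ready for use. H3K27me3 is laid down by Polycomb complexes on genes kept silent.

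All animals were purebred merino sheep, wild type and untreated. The fetuses were taken at 132 days of gestation (term is at 150 days), when this depot is mostly brown fat, and the lambs about 80 days after birth, when it has become mostly white. The lamb age is 80 days in the study design and 89 ± 7 days in the description of how the animals were kept, and the lamb library titles carry a tag (VEH) that is absent from the fetal ones and is not explained in the labels. Each stage had 2 libraries of H3K27ac and 2 of H3K27me3, while H3K4me3 had 2 fetal and 3 lamb libraries. Each library came from 1 animal, and animals 1 and 2 of each stage served for all 3 marks. Stage, the tag and anything else that set the animals apart cannot be told apart.

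Reads in peak regions ran from 34871674 to 44096535 per H3K27ac library and from 7233767 to 10645917 per H3K27me3 library. For H3K4me3 they ran from 37544047 to 58333449 in the fetuses and lamb 1, but were 13090548 and 12482468 in lambs 2 and 3. Behind the values of the matrix genes stood 38 to 1398 reads per promoter and library for H3K27ac, 26 to 8278 for H3K4me3 and 8 to 247 for H3K27me3. A promoter entered a table only where some library reached a deposited value of about 50 or more, so weak promoters are missing. Of the fat cell markers checked, all 10 had an H3K27ac promoter, none was at 0, and their summed value was 3244 to 3551 in fetuses and 2303 to 2337 in lambs. The promoter values used throughout are the deposited ones, rescaled so that libraries of a mark compare, and each log2 change is lamb minus fetus. A promoter is called higher or lower where limma's adjusted p is under 0.05 over the whole table of the mark.

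The matrix genes were spread unevenly over the tables. There were 80 with an H3K27ac promoter, 83 with an H3K4me3 promoter and 57 with an H3K27me3 promoter. All 3 tables held 34 of the 107 matrix genes (31.8%), against 1910 of all 18460 genes (10.3%). Among those 34 were the type I collagen genes COL1A1 and COL1A2, the basement membrane collagen COL4A2, the laminins LAMA1, LAMA3, LAMA4 and LAMB3, and 9 ADAMTS genes. Of the matrix genes, 33 (30.8%) were in the H3K27ac and H3K4me3 tables alone, against 44.4% of all genes. The genes COL6A2, COL6A3, LAMA2, ADAM10, MMP11 and TIMP4 had no promoter under these names in any of the deposited tables.

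H3K27ac, the mark of active promoters, was lower in lambs at the collagen genes COL4A2 and COL3A1 by more than 2-fold, and at 5 of the 10 laminin promoters. It was also lower at the proteoglycan-cutting proteases ADAMTS1, ADAMTS9 and ADAMTS20, at the membrane proteases ADAM19, ADAM17 and MMP14, and at the laminin receptor ITGA7. It was higher in lambs at TIMP2, ITGA4, COL6A1, COL2A1, MMP19, ADAM11, ADAM33 and 4 ADAMTS genes. In all, 11 of the 80 promoters were higher and 16 were lower. Of all 13222 promoters 11.4% were higher and 17.7% lower by the same rule, or 29.1% in either direction, so the matrix genes as a whole were called about as often as promoters in general. Their median log2 change was 0.09, against 0.02 for all promoters. The split depended on the scaling of the libraries: it was 0 higher and 23 lower with the deposited scaling left as it was (1.26% and 30.3% of all promoters), and 26 higher and 8 lower when libraries were scaled to their reads in peak regions (29.8% and 7.31% of all).

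**Figure D1:**
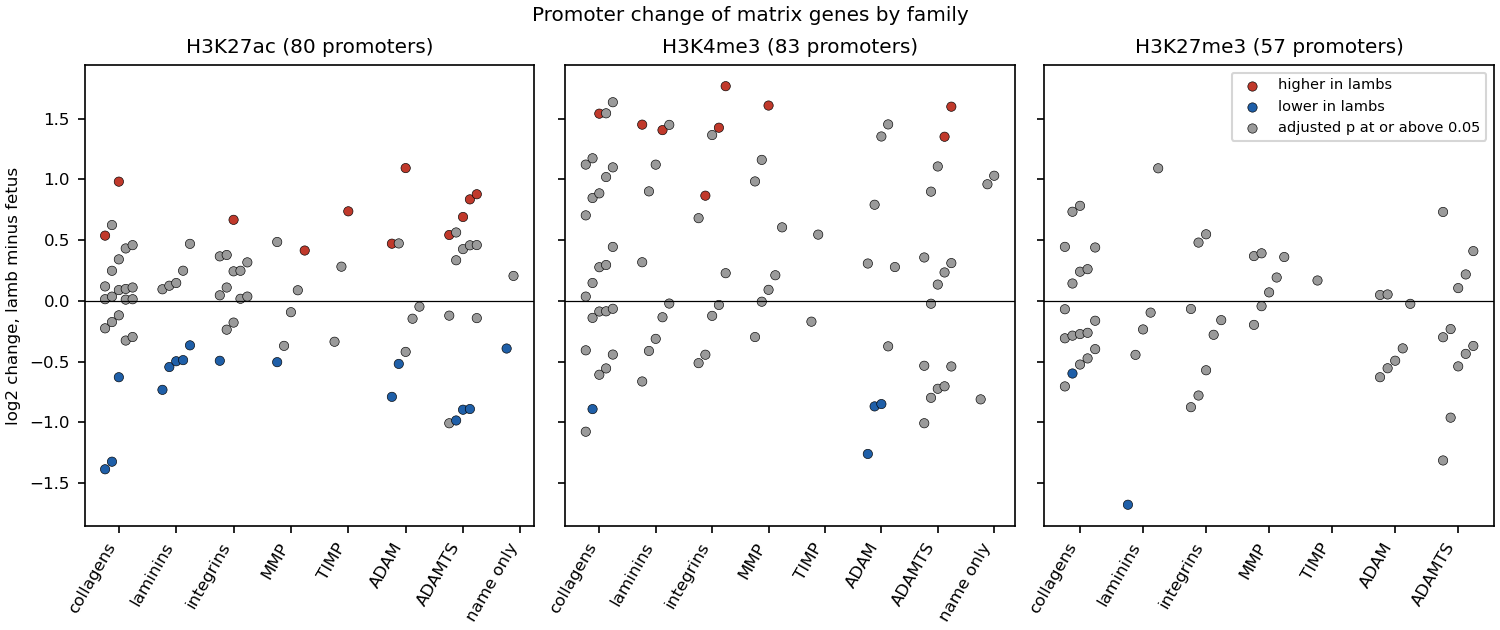
Log2 change (lamb minus fetus, vertical axis) of each matrix gene promoter by family, 1 panel per mark. Each point is a promoter, red where it was higher and blue where it was lower in lambs at an adjusted p under 0.05, and "name only" holds the genes that match by spelling alone. For H3K27ac the collagens COL4A2 and COL3A1 lie lowest, for H3K4me3 49 of the 83 points lie above 0 under this scaling, and for H3K27me3 the laminin LAMA3 stands apart at -1.68.

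Among the fibrillar collagens, which form the tensile fibres of connective tissue, 1 of 8 was higher and 2 were lower for H3K27ac. COL3A1, type III collagen of soft and elastic tissues, had H3K27ac values of 581 and 791 in the fetuses and 256 and 286 in the lambs. Both lambs lay far below both fetuses, and the values fell 2.53-fold (log2 change -1.32, SE 0.14, limma adjusted p = 1.24e-05). COL5A2, a type V chain that joins type I collagen in fibrils, had 540.5 and 696 in fetuses and 363 and 434 in lambs (log2 change -0.63, adjusted p = 0.00269). COL3A1 and COL5A2 are neighbours in the RefSeq gene order. COL2A1, the main collagen of cartilage, was a weak promoter that went the other way, from 59.7 and 50.4 to 120.1 and 99.4 (log2 change 0.98, adjusted p = 0.0115).

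Neither gene of type I collagen, the most abundant fibre protein, was called. COL1A1 had 182 and 139 in fetuses and 160.5 and 186 in lambs, with overlapping stages (log2 change 0.12, 95% interval -0.26 to 0.50, adjusted p = 0.651). COL1A2 had 253 and 231 against 205 and 223 (log2 change -0.17, interval -0.47 to 0.12, adjusted p = 0.36). The interval of COL3A1 ran from -1.62 to -1.03 and overlapped neither, although the difference between the genes was not itself tested.

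Network-forming collagens numbered 5 in the H3K27ac table, and 1 was lower. COL4A2, a type IV chain that forms the sheet of basement membranes, had 542 and 529.9 in the fetuses and 203 and 206 in the lambs. The pairs of animals were nearly alike within each stage, and the value fell 2.62-fold (log2 change -1.39, SE 0.12, adjusted p = 4.33e-06), rank 17 among the falls of all 13222 promoters. COL4A1, its partner chain and its neighbour in the genome, is read in the opposite direction from a shared stretch in mammals. Its promoter had 261 and 202 in fetuses and 217 and 161 in lambs, and the stages overlapped (log2 change -0.30, interval -0.66 to 0.06, adjusted p = 0.201). The sources used here do not give the width of the promoter windows, and the difference between the partners was not tested.

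Among the remaining collagens COL6A1 was the only call. It encodes a chain of the beaded filaments that surround fat cells and had 185 and 131 in fetuses and 227 and 225 in lambs (log2 change 0.54, adjusted p = 0.0279). None of the 5 fibril-associated collagens was called. COL15A1, a basement membrane collagen, had 371 and 289.9 against 270.0 and 253 (log2 change -0.33, adjusted p = 0.0833), and COL18A1, the source of endostatin, had 152 and 96.2 against 188 and 147 (log2 change 0.46, adjusted p = 0.125).

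Laminins, the cross-shaped proteins of basement membranes, were lower at 5 of 10 H3K27ac promoters and higher at none (median log2 change -0.14), but under scaling to reads in peak regions or quantile normalization 1 of 10 was lower, and the median was 0.10 under the former. LAMC1, the gamma chain shared by most laminins, had 329 and 296 in fetuses and 183 and 191 in lambs (log2 change -0.73, SE 0.14, adjusted p = 0.000837). LAMA4, the alpha chain of laminins around fat cells and blood vessels, had 435 and 517 against 324 and 348 (log2 change -0.50, adjusted p = 0.00684). The beta chains fell too: LAMB1 from 315 and 308 to 239 and 244 (log2 change -0.37), LAMB2 from 596 and 398 to 363 and 332 (-0.49) and LAMB4 from 349 and 496 to 296 and 274 (-0.54). In each of these 5 genes both lambs were below both fetuses. LAMB1 and LAMB4 are neighbours in the RefSeq gene order. Of promoters of like mean level, 4.85% fell further than LAMC1, but 28.6% further than LAMB4, 29.2% than LAMB1, 52.2% than LAMA4 and 53.4% than LAMB2. The 5 laminins that were not called included chains of epithelial laminins, with log2 changes of 0.25 at LAMA3 and 0.15 at LAMB3.

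Of 13 integrin promoters 1 was higher and 1 was lower. ITGA4, the alpha chain of receptors that white blood cells use for adhesion, had 174 and 156 in fetuses and 259 and 266 in lambs (log2 change 0.67, SE 0.15, adjusted p = 0.00272). ITGA7, a laminin receptor chain known from muscle, had 267 and 273 against 195 and 188 (log2 change -0.49, adjusted p = 0.0125). ITGB1, the beta chain of most matrix-binding integrins, had 172 and 195 against 172 and 205, and ITGA1, a collagen receptor, 165 and 206 against 190.2 and 191. Their log2 changes were 0.04 (interval -0.30 to 0.37) and 0.05 (interval -0.29 to 0.38). ITGA5, of the fibronectin receptor, had 339.9 and 239 against 399 and 345 (log2 change 0.38, adjusted p = 0.0684), and ITGA6, of laminin receptors, 203 and 242 against 203 and 174 (log2 change -0.24, adjusted p = 0.26). Of the letter-named integrins outside the pattern, ITGAV, the alpha chain of vitronectin receptors, and the leukocyte chain ITGAL were lower (log2 changes -0.46 and -0.71, adjusted p = 0.0151 and 0.00247), and the leukocyte chain ITGAD was higher (0.73, adjusted p = 0.0467).

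The MMPs and TIMPs were few and mixed. MMP14, a membrane enzyme that cuts collagen and activates MMP2, had 403 and 318 in fetuses and 253 and 251 in lambs (log2 change -0.50, adjusted p = 0.0104). MMP2, a gelatinase, had 265 and 251 against 195 and 203, just past the threshold (log2 change -0.37, adjusted p = 0.0509), although the stages did not overlap. TIMP2, an inhibitor that also takes part in the activation of MMP2 by MMP14, was higher in lambs, with 239 and 242 against 153 and 136 in fetuses (log2 change 0.74, SE 0.16, adjusted p = 0.00219). MMP19 rose from 192 and 175 to 253 and 237 (log2 change 0.41, adjusted p = 0.0387). TIMP1 and TIMP3, further inhibitors, had log2 changes of 0.28 (adjusted p = 0.261) and -0.34 (adjusted p = 0.105).

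ADAMTS genes went both ways, with 4 of 15 H3K27ac promoters higher and 3 lower (0 and 3 with the deposited scaling). The 3 that fell all encode enzymes known to cut large proteoglycans such as versican. ADAMTS1 had 354 and 321 in fetuses and 186 and 176 in lambs (log2 change -0.90, adjusted p = 0.000163). ADAMTS9 had 498 and 463 against 257 and 259.9 (log2 change -0.89, adjusted p = 7.2e-05), and ADAMTS20 had 189.9 and 233 against 98.1 and 114 (log2 change -0.98, adjusted p = 0.00101). The fall was between 1.86- and 1.99-fold at these 3 genes. Other proteoglycan-cutting members did not move with them: ADAMTS4 had a log2 change of -0.14 (adjusted p = 0.448), ADAMTS5 of -0.12 (adjusted p = 0.59), and ADAMTS8 and ADAMTS15 were higher, at 0.54 and 0.69. ADAMTS8 and ADAMTS15 are neighbours in the RefSeq gene order, as are ADAMTS1 and ADAMTS5. ADAMTS10, which binds fibrillin microfibrils, rose from 83.8 and 76.4 to 148 and 139 (log2 change 0.84), and ADAMTS18 rose from 99.1 and 76.4 to 178 and 145 (log2 change 0.88).

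ADAM promoters were 2 higher and 2 lower of 8. ADAM19, a membrane protease that releases growth factors, had the highest mean H3K27ac value of the matrix genes, with 640.5 and 664 in fetuses and 340.5 and 417 in lambs (log2 change -0.79, adjusted p = 0.000253). ADAM17, which releases tumour necrosis factor and ligands of the epidermal growth factor receptor, fell from 358 and 374 to 248 and 262 (log2 change -0.52, adjusted p = 0.00479). ADAM11, a member without a working protease site, was the weakest called promoter and rose from 44.9 and 31.7 to 95.1 and 70.1 (log2 change 1.09, adjusted p = 0.0202). ADAM33 rose from 139 and 126 to 182 and 187 (log2 change 0.47, adjusted p = 0.0487). ITGB3BP, matched by spelling only, was lower (log2 change -0.39), but had a log2 change of 0.08 under quantile normalization.

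**Figure D2:**
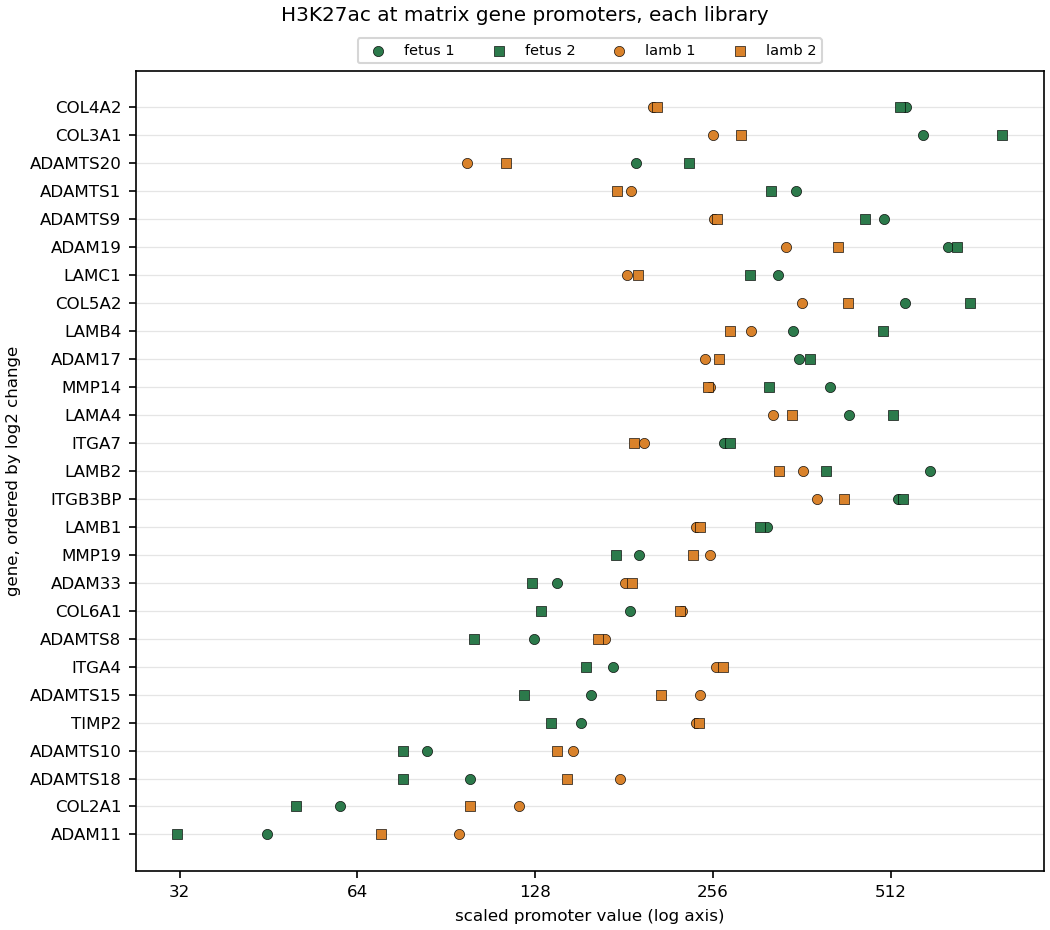
Scaled H3K27ac value (log axis) of every library at the 27 matrix gene promoters called higher or lower, ordered by their log2 change, with fetuses in green and lambs in orange. The 16 genes from COL4A2 down to LAMB1 have both lambs below both fetuses and the 11 from MMP19 down to ADAM11 both lambs above, and most of the strongest promoters are among the former.

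Whether the lamb and fetal values overlapped gave a broader count. Both lambs lay above both fetuses at 27 of the 80 promoters and below at 23, against 33% and 33.5% of all promoters. Called in each of the 12 alternative settings were COL4A2, COL3A1, ADAMTS1, ADAMTS9, ADAMTS20 and LAMC1. Fewer promoters passed in the whole table when a lamb was left out. Without lamb 1 there were 0 higher matrix genes (limma, with 18 uncalled members of either direction at an unadjusted p under 0.05) and 10 lower, against 1.07% and 7.83% of all promoters, and without lamb 2 there were 1 and 11, against 2.03% and 11.1%.

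The direction of the H3K27ac change varied with the level of the promoter, in the matrix genes as in all others. Of the 17 matrix genes among the strongest 25% of all H3K27ac promoters, 12 were lower in lambs (70.6%) and none was higher, against 46.4% lower among all promoters of that level. Among the weakest 25%, 5 of 20 matrix genes were higher (25%) and none lower, against 15.9% higher of all. Each promoter was therefore also placed among promoters of like mean level, in 20 bins of the table, as a description. COL4A2 had the largest fall of the 661 promoters in its bin, whose median log2 change was -0.38. COL3A1 was below all but 0.605% of its bin and ADAMTS20 below all but 0.758%. ADAMTS16, ADAMTS1 and LAMC1 also lay in the lowest 5% of their bins, and ADAMTS18, ADAM11, ADAMTS15, TIMP2, ITGA4 and ITGA5 above 95% of theirs. ADAMTS16 was not called (limma adjusted p = 0.0801) and was weak, with 44.9 and 45.3 in fetuses and 24.2 and 19.9 in lambs. Under the entry rule for promoters, it may be present only through the stage where it was higher. Other called falls were nearer the middle of their bins. The share of promoters falling further was 29.2% at LAMB1, 53.4% at LAMB2, 52.2% at LAMA4, 28.6% at LAMB4 and 36.0% at COL5A2. It was 25.8% at MMP14, 23.9% at ADAM17, 63.4% at ITGB3BP, 17.9% at ADAM19, 11.8% at ITGA7 and 6.06% at ADAMTS9.

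**Figure D3:**
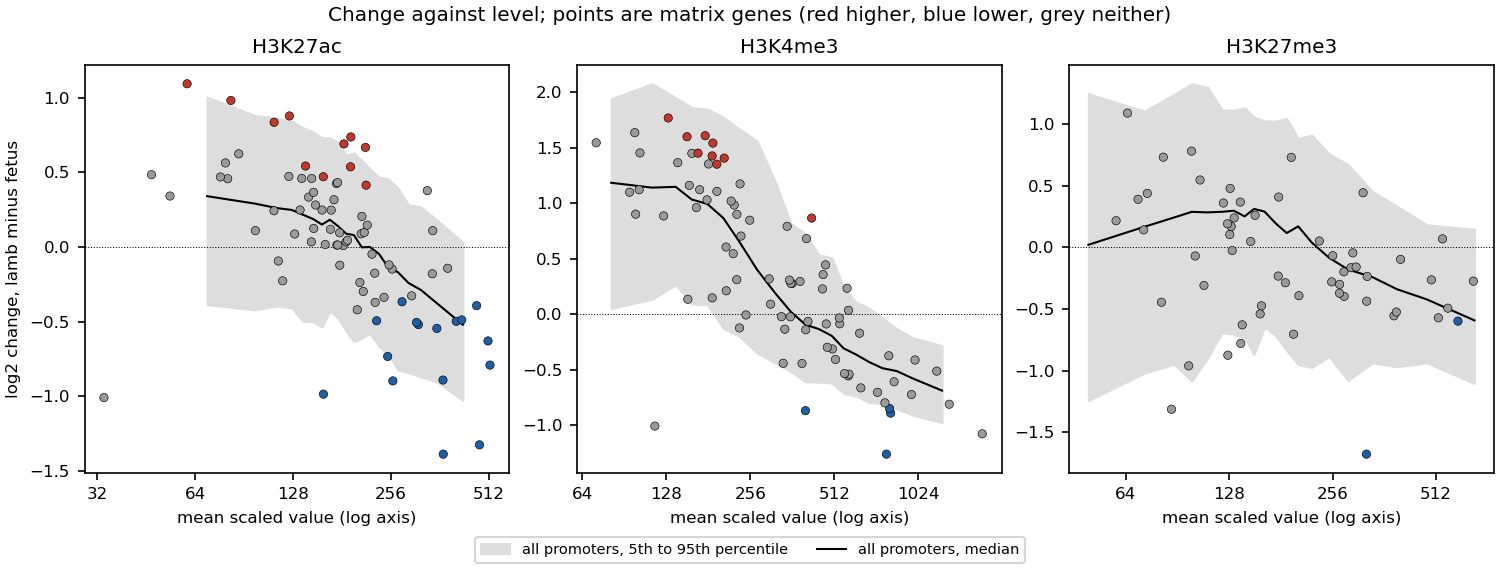
Log2 change (lamb minus fetus, vertical axis) against the mean scaled value over libraries (log axis) for the matrix genes, with the median and the range from the 5th to the 95th percentile over all promoters of like level. In all 3 marks strong promoters lean down and weak ones up, and COL4A2 and COL3A1 (H3K27ac), ADAM19 (H3K4me3) and LAMA3 (H3K27me3) lie below the grey band.

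Cell type markers moved between the stages as well. For H3K27ac, where 17.7% of all promoters were lower and 11.4% higher, 5 of 10 fat cell markers were lower and none higher. Of the lower ones FABP4, PLIN1, LPL and ADIPOQ were strong, with stage means of 263 to 613, and UCP1 was weaker (275 and 143). GPD1, at 287 and 270, was not called. Of all promoters with a mean of 259.4 or more, 46.4% were lower. No marker was placed among promoters of like level. The fat cell count therefore does not set fat cell markers apart from strong promoters in general. Of the 10 lymphocyte markers listed only 5 were found. Of these 4 were higher, with summed values of 481 to 521 in fetuses and 837 to 999 in lambs. Among all promoters with a mean of 142.3 or less, 15.9% were higher. Under the entry rule for promoters, a weak marker may be present only through the stage where it was higher. Of 9 stromal markers, which label fibroblasts and fat cell precursors, 4 were higher and none lower, and their sum went from 1878 to 2066 in fetuses to 2176 to 2253 in lambs. Endothelial markers were lower at 2 of 8 (EMCN and TEK) and macrophage markers at 1 of 6 (MRC1, log2 change -0.44), with none higher in either. None of the markers found was at 0. For H3K27me3, 8.83% of all promoters were lower and 4.42% higher. Lower were 2 of 7 stromal, 1 of 7 smooth muscle, 1 of 4 macrophage, 1 of 2 mesothelial and 1 of 2 skeletal muscle markers. Higher was 1 of 7 lymphocyte markers, and no endothelial, fat cell or adrenal marker was called. In whole tissue, fewer cells of a type and less of a mark per cell cannot be told apart, and the part of cell makeup in the changes of the matrix genes was not tested.

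H3K4me3 was higher in lambs at 9 of 83 matrix promoters and lower at 4, against 8.33% and 1.9% of all 12922 promoters (10.2% in either direction). The higher ones were the integrins ITGB1, ITGB5 and ITGA5, the laminins LAMA5 and LAMB4, and COL27A1, MMP9, ADAMTS10 and ADAMTS18. The lower ones were COL3A1 and the proteases ADAM17, ADAM19 and ADAM32. The members' median log2 change was 0.28, against 0.00 for all. With the deposited scaling the split was 0 higher and 32 lower (0.426% and 43.5% of all promoters), with reads in peak regions as library size 4 and 11 (5.06% and 10.3% of all), and with quantile normalization 0 and 0 (limma, 12 members at an unadjusted p under 0.05).

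Of the 12 matrix genes among the strongest 25% of H3K4me3 promoters, ADAM19, ADAM17 and COL3A1 fell. ADAM19 had H3K4me3 values of 882 and 1563 in the fetuses and 601, 473 and 413 in the lambs (log2 change -1.26, SE 0.28, adjusted p = 0.00486), the largest fall among the 646 promoters of its level. ADAM17 had 1029 and 1163 against 759.8, 534 and 551 (log2 change -0.85, adjusted p = 0.0397), and ADAM32 had 614 and 497 against 308, 302 and 297 (log2 change -0.87, adjusted p = 0.0433). COL3A1 had 612 and 1771 against 585, 599 and 504, so that fetus 1 was close to the lambs and fetus 2 carried the difference (log2 change -0.89, adjusted p = 0.0477). Without fetus 2 the change at COL3A1 was -0.12 (adjusted p = 0.809) and that at ADAM19 was -0.85 (adjusted p = 0.0371). The strongest matrix promoter, COL4A2, had 1779 and 3363 against 1434, 1028 and 1055 and narrowly missed the threshold (log2 change -1.08, adjusted p = 0.0572).

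The promoters that rose were weak ones, apart from ITGA5. ITGB1 had 48.5 and 55.3 in the fetuses and 132, 200.4 and 215 in the lambs (log2 change 1.77, SE 0.55, adjusted p = 0.0341). ITGB5, a vitronectin receptor chain, had 83.5 and 99.1 against 185, 280.1 and 287 (log2 change 1.42, adjusted p = 0.031). ITGA5 had 354 and 222 against 471, 471 and 605 (log2 change 0.87, adjusted p = 0.0463), and turned to -0.42 with the deposited scaling. Of the 10 integrins 3 were called higher and none lower, but 0 and 2 with the deposited scaling and none by quantile normalization. Of promoters of like level, 88.2% had a lower change than ITGB1 and 80% a lower one than ITGB5, with bin medians of 1.15 and 0.99. For ITGA5 the share was 97.1%, with a bin median of -0.09. In ITGB1 and ITGB5 all lambs were above both fetuses, and lamb 1 lay nearer the fetuses than did lambs 2 and 3, whose libraries were the shallow ones.

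The same order of the lambs held at the other rising genes. LAMA5, the alpha chain of widespread basement membrane laminins, had 151 and 61.8 in fetuses against 169, 261 and 389.9 (log2 change 1.41, adjusted p = 0.0366), and LAMB4 had 69.5 and 83.3 against 123, 227 and 329 (1.45, adjusted p = 0.047). MMP9, a gelatinase of white blood cells and remodelling tissue, had 103 and 50.4 against 126, 365 and 238 (1.61, adjusted p = 0.0331). COL27A1, a fibrillar collagen of cartilage, had 128 and 53.2 against 165, 348 and 248 (1.54, adjusted p = 0.0305). In each of these, lamb 1 was the lowest lamb. ADAMTS10 rose by 1.60 and ADAMTS18 by 1.35 on the log2 scale, with lamb 1 again lowest. Promoters of like level rose as well, with bin medians of 0.87 to 1.03. The share of the bin with a lower change was 83.1% for LAMA5, 78.4% for LAMB4, 88.4% for MMP9 and 87.0% for COL27A1. It was 85.7% for ADAMTS10 and 79.8% for ADAMTS18. The part of depth in these rises was not tested. For H3K4me3, 3 of 6 lymphocyte markers and 2 of 6 macrophage markers were higher, against 8.33% of all promoters. None was lower and none was at 0. Lymphocyte markers had a median log2 change of 1.20, with summed values of 422 to 781 in fetuses and 1017 to 1630 in lambs. Macrophage markers had a median of 1.10, with sums of 1197 to 1538 and 1932 to 2347. Apart from CD14, the markers were mostly weak, with stage means of 55.8 to 386. Across bins with median levels of 81.4 to 271, the median log2 change of all promoters was 0.40 to 1.18. The markers were not placed among promoters of like level, so these counts do not set them apart from weak promoters in general. Their part in the rises was not tested either. Stromal, smooth muscle, skeletal muscle, adrenal and mesothelial markers had H3K4me3 medians of 0.76, 0.57, 0.79, 0.88 and 0.40, with none called. Only 2 skeletal muscle, 2 mesothelial and 1 adrenal marker were found. Endothelial markers had a median of -0.063, with 1 of 8 higher, and fat cell markers of -0.49, with 1 of 10 lower.

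**Figure D4:**
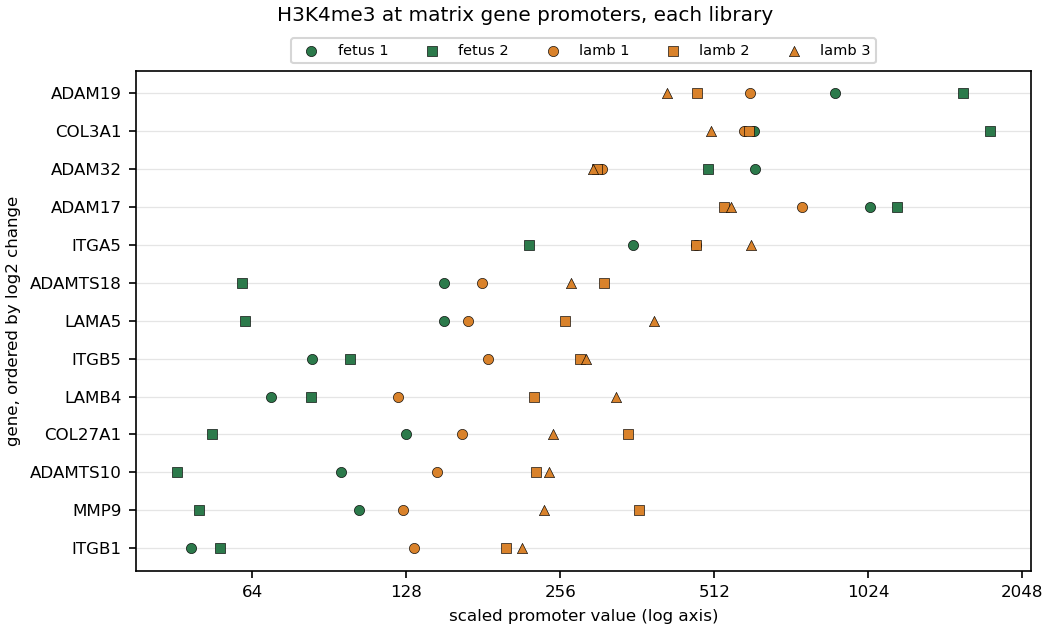
Scaled H3K4me3 value (log axis) of every library at the 13 matrix gene promoters called higher or lower, ordered by their log2 change, with fetuses in green and lambs in orange. The 4 falling genes lie to the right of most rising ones, and at the rising genes lamb 1 lies between the fetuses and lambs 2 and 3, or level with lamb 2 at ITGA5.

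Neither type I collagen gene was called for H3K4me3. COL1A2 had 557 and 577 in fetuses and 567, 604 and 572 in lambs (log2 change 0.04, interval -0.49 to 0.56), and COL1A1 had 316 and 323 against 337, 413 and 418 (0.28, interval -0.31 to 0.86). COL4A1, by contrast with COL4A2, had 141 and 124 against 193, 289.7 and 346 (log2 change 1.02, adjusted p = 0.0696). All lambs were above the fetuses at COL4A1 and below them at COL4A2, and neither change passed the threshold.

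None of the 13 H3K4me3 calls was kept when lamb 2 or lamb 3 was left out, where few promoters of the whole table passed. Without lamb 2 none of the 83 passed (limma, 17 at an unadjusted p under 0.05), without lamb 3 none (14), and without both none (0). Of all 12922 promoters 40 then rose and 10 fell without lamb 2, 8 rose and 4 fell without lamb 3, and none passed without both. The log2 change at ADAM19 was then -1.24 without lamb 2 and -1.14 without lamb 3, and that at COL3A1 -0.94 and -0.81. Leaving out fetus 1 gave a members' median log2 change of 0.66, against 0.072 for all promoters. Leaving out fetus 2 gave -0.047, against -0.026. By level, 6 of 23 matrix genes among the weakest 25% of promoters were higher (26.1%), against 15.9% of all, and 3 of 12 among the strongest 25% were lower (25%), against 5.60% of all. The lambs lay wholly above the fetuses at 25 of 83 promoters and wholly below at 20, against 25.7% and 22.8% of all promoters.

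H3K27me3, the Polycomb mark, was lower in lambs at 2 of 57 matrix promoters, LAMA3 and COL9A2, and higher at none, against 8.83% lower and 4.42% higher of all 6334 promoters (13.2% in either direction). A further 11 had an unadjusted limma p under 0.05. The members' median log2 change was -0.16, against 0.02 for all promoters, and 35 of the 57 changes were negative. With reads in peak regions as library size the split was 2 higher and 1 lower (16.6% and 1.83% of all promoters). The members' median was then 0.20, against 0.39 for all promoters.

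LAMA3, the alpha chain of the laminin that anchors epithelia, had H3K27me3 values of 507 and 458 in the fetuses and 105 and 214 in the lambs. Both lambs were far below both fetuses, a 3.02-fold fall (log2 change -1.68, SE 0.29, interval -2.27 to -1.08, adjusted p = 0.00112), rank 26 among the falls of all 6334 promoters and the largest of the 317 promoters of its level. The lamb values rested on few reads, the lowest library at LAMA3 having 32. LAMA3 kept its call in 11 of 12 alternatives and lost it without lamb 2 (log2 change -2.19, adjusted p = 0.135), where none of the 6334 promoters passed (limma, 13 matrix promoters at an unadjusted p under 0.05). The other marks did not move with it: H3K27ac at LAMA3 was 138 and 109 against 157 and 135 (log2 change 0.25, adjusted p = 0.366), and H3K4me3 was 453 and 235 against 349, 331 and 287 (log2 change -0.02, adjusted p = 0.963).

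COL9A2, a fibril-associated collagen of cartilage, had 830.1 and 606 in fetuses and 475 and 462 in lambs (log2 change -0.60, adjusted p = 0.0403). Of the promoters of its level 48.7% fell further, and their median log2 change was -0.59, so it fell about as far as promoters of like level. Its call was lost in 7 of 12 alternatives. It had no promoter in the H3K27ac table, and for H3K4me3 it had 276 and 93.4 against 198, 396 and 311 (log2 change 0.85, adjusted p = 0.121).

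Several further genes had lower values in both lambs than in both fetuses without passing the threshold. ADAMTS5, the main aggrecan-cutting enzyme, had 121 and 125 against 36.0 and 65.9 (log2 change -1.31, adjusted p = 0.0592), on as few as 11 reads. ITGA8, a receptor chain of mesenchymal cells, had 565 and 680.0 against 387 and 449 (log2 change -0.57, adjusted p = 0.0531). COL12A1, which decorates type I fibrils, had 239 and 249 against 164 and 136 (log2 change -0.70, adjusted p = 0.0969). COL1A1 had 531 and 394 against 377 and 268 and COL1A2 had 296 and 333 against 246 and 231, with log2 changes of -0.52 and -0.40 (adjusted p = 0.132 and 0.269). Of promoters of like level, 32.3% fell further than ITGA8, 30.2% further than COL1A1 and 32.0% further than COL1A2. The share was 2.22% for ADAMTS5 and 8.54% for COL12A1. All 5 genes had H3K4me3 as well, so both marks were found at the promoters of type I collagen in this mixed tissue.

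**Figure D5:**
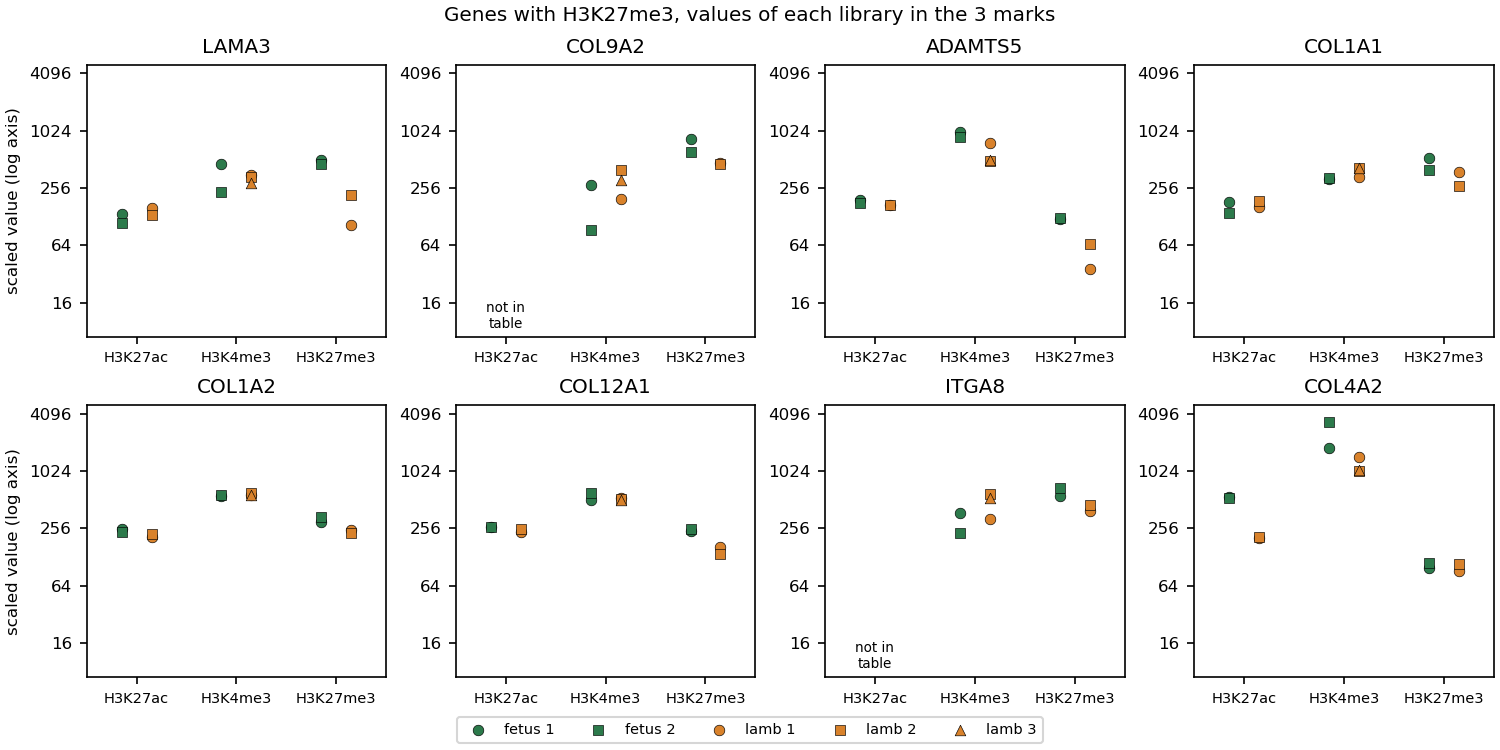
Scaled value (log axis) of every library in each of the 3 marks for 8 genes with H3K27me3, fetuses in green and lambs in orange. LAMA3, COL9A2 and ADAMTS5 have lower H3K27me3 values in both lambs, with lower H3K4me3 values as well at ADAMTS5, while COL4A2 shows lower H3K27ac and H3K4me3 values and level H3K27me3.

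In 20 of the 57 promoters both lambs were below both fetuses and in 10 both were above, against 29.3% and 30.5% of all promoters. The largest positive change was at LAMB3, a weak promoter, with 33.6 and 43.8 in fetuses and 128 and 53.6 in lambs (log2 change 1.09, adjusted p = 0.197). Under the entry rule for promoters, LAMB3 may be present only through the stage where it was higher. None of the 7 MMP promoters was called, with log2 changes from -0.20 to 0.39, and MMP9 had 491 and 549 against 626 and 474. No matrix gene was called for both H3K27me3 and another mark, but only LAMA3 and COL9A2 had an H3K27me3 call at all.

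Over the 3 marks 36 of the 107 genes were called in at least 1, 6 in exactly 2 and none in all 3. The like counts over all genes were not made, so these and the counts of pairs below have no background. Per mark, 29.1% of all H3K27ac, 10.2% of all H3K4me3 and 13.2% of all H3K27me3 promoters were called. Of the 67 genes with both H3K27ac and H3K4me3, ADAM17, ADAM19 and COL3A1 were lower in both, and ADAMTS10 and ADAMTS18 were higher in both. LAMB4 was lower for H3K27ac and higher for H3K4me3. Another 12 were lower for H3K27ac alone, among them COL4A2, LAMC1, ADAMTS1 and ADAMTS9, whose H3K4me3 changes were -1.08, -0.66, -0.80 and -0.72 with adjusted p between 0.0524 and 0.0846. For these 4 the lambs lay below both fetuses in both marks, as they did at ITGA7, LAMB1 and MMP14 (H3K4me3 changes -0.44, -0.31 and -0.30). At ADAMTS20, LAMA4, LAMB2, COL5A2 and ITGB3BP the stages overlapped for H3K4me3, with changes of -0.02, -0.13, -0.41, -0.61 and -0.81.

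The authors' deposited table of fold changes gave like counts at an FDR p under 0.05. In the authors' deposited table, matrix promoters numbering 11 were higher and 18 lower for H3K27ac (12.7% and 18.1% of all), 8 higher and 5 lower for H3K4me3 (9.65% and 2.73%), and 0 higher and 1 lower for H3K27me3 (6.5% and 9.19%).

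Other genes of the matrix were taken as lists, for which no other scaling was run. Their counts stand against the same shares of all promoters as above: 11.4% higher and 17.7% lower for H3K27ac, 8.33% and 1.9% for H3K4me3, and 4.42% and 8.83% for H3K27me3. Of 28 further structural matrix genes 4 were higher and 7 lower for H3K27ac. The fall was largest at OGN (osteoglycin, a small proteoglycan), from 460.1 ± 152 to 176 ± 0.989 (SD, n = 2 per stage; log2 change -1.34), and at SPARCL1, from 807 ± 57.4 to 357 ± 8.40 (-1.17). The collagen-binding proteoglycan DCN (decorin) fell by 0.76 on the log2 scale. MFAP2, a microfibril protein, rose by 0.94, EFEMP1, a fibulin, by 0.86 and FMOD (fibromodulin) by 0.77. For H3K4me3 1 of 25 was higher (HSPG2, perlecan, 1.04) and none lower. For H3K27me3 2 of 12 were lower: FN1 (fibronectin, the ligand of the ITGA5 receptor), from 540 ± 7.78 to 249 ± 37.2 (log2 change -1.12, adjusted p = 0.00275), and EFEMP1, from 535 ± 43.4 to 263 ± 4.0 (-1.02, adjusted p = 0.00394). EFEMP1 had more H3K27ac and less H3K27me3 in lambs.

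Of 18 collagen processing and crosslinking genes 3 were higher for H3K27ac and 2 were lower. LOXL3 (0.57) and LOX (0.57), lysyl oxidases that crosslink collagen, and P4HA2 (0.52) rose, while P4HA1 (-0.60), the other common alpha subunit of prolyl hydroxylase, and CRTAP (-0.40) fell. For H3K4me3 1 of 19 rose (LOXL4, 0.92) and 1 fell (the transglutaminase TGM2, -1.22). For H3K27me3 1 of 8 fell (TLL1, a procollagen protease, -0.94).

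Among 22 adhesion genes downstream of or beside the integrins, 3 were higher and 2 lower for H3K27ac. CD44, the hyaluronan receptor, rose by 0.66, the adaptor TNS1 by 0.61 and the collagen receptor DDR1 by 0.47. FERMT2, which activates integrins, had a log2 change of -0.75 and the syndecan SDC4 of -0.43. For H3K4me3 4 of 20 were higher (PTK2, FERMT1, CD44 and TNS1) and none lower, and for H3K27me3 none of 7 was called. TGF-beta pathway genes were higher at 3 of 18 for H3K27ac (LTBP3, SMAD3 and SMAD7) and lower at none, with 1 of 15 higher for H3K4me3 (SMAD2) and none of 6 called for H3K27me3.

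Of 17 other matrix protease genes 4 were higher and 2 lower for H3K27ac. PLAUR, the urokinase receptor, had 118 ± 25 in fetuses and 252 ± 21.9 in lambs (log2 change 1.10, adjusted p = 0.000316). For H3K27me3 PLAUR went the opposite way, from 753 ± 19.9 to 271 ± 59.4 (log2 change -1.49, adjusted p = 0.000291). The protease inhibitor A2M rose by 0.67 for H3K27ac, and FAP and CTSK, proteases of fibroblasts and of resorbing cells, had log2 changes of -0.58 and -0.52. For H3K4me3 none of 15 was called, and for H3K27me3 2 of 8 were lower (PLAUR and PAPLN).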

How the data were processed

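Chromatin from perirenal fat was cut with micrococcal nuclease, precipitated with 10 µg of antibody and sequenced as single reads of 50 bp, per the labels' protocols. Per the labels, CLC Genomics Workbench 7.0 placed the reads on the sheep build Oar_v3.1. The submitters' processing notes also name bedtools 2.19.0, edgeR and MACS, with no roles.

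The authors deposited whole-number read counts per peak region, used here only for depth and for 1 alternative scaling. The deposited promoter values are a scaled signal, in which 1 read is worth a fixed step per library. The sources used here do not say what it is relative to. The authors also deposited a signed fold score, a p-value and an FDR p-value per promoter, per the file headers. In the H3K27me3 table the headers of fold and p-value are exchanged, as the values show, and 1 line without a gene was left out there. Pooled input libraries were not used.

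Signal was rescaled with each library's column total and TMM factor (edgeR 4.0.16), transformed as log2(value + 1) and fitted by limma's trend method (limma 3.58.1, R 4.3.3) over every promoter of a mark, lamb minus fetus, with Benjamini-Hochberg adjustment over the whole table. The fit was tested on simulated data. The adjusted p draws on the spread of all promoters. A count test had been foreseen for whole-number promoter values and was not used, since the values were scaled.

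The members and lists were chosen with earlier results of these data known. Named in full are, per mark, up to 10 called members per direction with the largest change, a list of core matrix genes, genes called in a pair of marks and up to 3 genes per list and direction. ITGA7, LAMB2, ITGB3BP, ADAM33, LAMB3, LAMA3 in the other marks, ITGA8, ITGAL, ITGAD, COL12A1, ADAMTS16 and the uncalled members of the ADAMTS family were named beyond that rule after their values were seen. Of the 107 members 102 were found by symbol in RefSeq's genes (assembly ARS-UI_Ramb_v3.0), which served only for gene order. Numbers shared by animals of both stages name different animals and do not pair. Sequences and coordinates were not used here.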

Additional observations from a re-analysis of the deposited data

How the results depend on the processing

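With the deposited scaling left as it was, 0 H3K27ac members were higher (limma, 32 uncalled members at an unadjusted p under 0.05), 0 H3K4me3 members were higher (41) and 32 lower. That setting shifted the median log2 change of all promoters to -0.30 for H3K27ac and -1.28 for H3K4me3, and the members' medians to -0.23, -1.01 and, for H3K27me3, -0.24. It also turned H3K4me3 at COL18A1 to -1.13 and at ITGA5 to -0.42. With reads in peak regions as library size, the medians of all promoters shifted to 0.25, -0.38 and 0.39. The members then split into 26 higher and 8 lower for H3K27ac (median 0.32), 4 and 11 for H3K4me3 (-0.10) and 2 and 1 for H3K27me3 (0.20). Column totals without TMM factors gave members' medians of 0.18 for H3K27ac and -0.051 for H3K27me3. There was 1 lower for H3K27me3 (5.81% of all promoters) and 2 lower for H3K4me3 (1.37% of all). All promoters then had medians of 0.11, 0.13 and 0.13 in the order H3K27ac, H3K4me3 and H3K27me3. Quantile normalization left 8 lower for H3K27ac (11.9% of all promoters, members' median 0.0098) and 1 lower for H3K27me3 (1.11% of all, members' median -0.078). It left 0 higher and 0 lower for H3K4me3 (limma, 12 at an unadjusted p under 0.05), and turned H3K27ac at ITGB3BP to 0.082.

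The H3K27ac median was 0.094 with median-of-ratios factors and 0.086 with a pseudocount of 5. Kept to promoters with a mean of at least 100, the members' medians were 0.026 for H3K27ac and -0.23 for H3K27me3. Leaving out 1 library at a time, which can leave a stage with 1 library whose spread is taken from the other stage, gave 0 to 24 higher, 10 to 21 lower and medians of 0.035 to 0.099 for H3K27ac. For H3K4me3 it gave 0 to 29 higher, 0 to 9 lower and medians of -0.047 to 0.66, and for H3K27me3 0 to 7 lower. Without lambs 2 and 3 together, a setting chosen after the data were seen, 0 H3K4me3 members were higher and 0 lower (limma, 0 at an unadjusted p under 0.05). The cause of these shifts was not tested.

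Animals with the same number at the 2 stages are different ones. The deviations of same-numbered animals correlated at 0.277 for H3K27ac, -0.412 and -0.346 for H3K4me3 and 0.0988 for H3K27me3. With the replicate block, 18 H3K27ac members were higher and 21 lower, against 17.7% and 22.0% of all promoters. For H3K27me3 5 members were lower, against 11.8% of all. The H3K4me3 run kept only animals whose number occurs at both stages, so it was without lamb 3. It gave 0 higher and 0 lower members (limma, 2 at an unadjusted p under 0.05, and 3 of all 12922 promoters passed), as did leaving out lamb 3 alone.

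Of the called members 6 of 27 for H3K27ac, 0 of 13 for H3K4me3 and 0 of 2 for H3K27me3 passed in every alternative run. Tests by edgeR and DESeq2 on reads recovered from the promoter values, and a search of promoter sequences for motifs, were planned and not run.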
